A study of Mus musculus with 26 samples.

Results

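Peaks in LINE elements were the ATAC-seq peaks of mouse Kupffer cells whose midpoint the deposited annotation placed in a long interspersed nuclear element. They were chosen from the annotation alone, as peaks on chromosomes 1 to 19 annotated as LINE and not as a promoter. Of 96381 peaks in the table of the inbred strains, 3322 met this rule, out of 79947 autosomal peaks outside promoters. By family, 2694 were in L1 elements, 477 in L2, 127 in CR1 and 24 in RTE elements. The L1 peaks were split by the subfamily name into 213 in young mouse L1 (L1Md, L1_Mus and L1VL), 993 in rodent Lx elements and 1488 in other L1 elements.

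LINEs are retrotransposons that copy themselves through an RNA intermediate, using proteins that the full-length element encodes. L1 has been active recently in the mouse, and its young copies are nearly identical to one another, whereas L2 and CR1 elements are ancient, no longer move and have diverged into sequence that is mostly unique. Most copies are silenced by DNA methylation and H3K9 methylation, and some old fragments hold binding sites of transcription factors and act as enhancers.

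ATAC-seq measures open chromatin from the sites at which a transposase cuts DNA. Kupffer cells, which are liver-resident macrophages, had been sorted from the livers of male mice aged 8 to 12 weeks. Per the labels, LPS and control mice of all strains had been fasted overnight. There were 4 control libraries each of C57BL/6J, A/J, CB6F1/J and BALB/cJ mice, and LPS libraries numbered 2 for BALB/cJ, 3 for C57BL/6J and 5 for CB6F1/J. These numbers follow the labels, whereas a legend of the study gives those of the inbred strains the other way round. CB6F1/J is the first-generation cross of C57BL/6J and BALB/cJ, so that each cell carries an allele of either strain. LPS is bacterial lipopolysaccharide, which activates macrophages through Toll-like receptor 4, and was given intraperitoneally at 0.1 mg/kg, 2 h before the cells were taken. Controls were not injected, so LPS cannot be told apart from the injection itself.

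The inbred libraries held 8.76 to 25.4 M tags, except BALB/cJ control replicate 4 with 178 M, and 46904 to 162812 of these tags (1101470 in replicate 4) were in LINE peaks. Promoter peaks of 5 of 6 Kupffer cell markers were present, with a summed normalised count of 424 to 548 in controls and 252 to 368 after LPS. The only hepatocyte marker promoter found had 4.81 to 23.1, and no promoter peak of 6 stellate cell or 7 lymphocyte markers was found. Those of 2 of 6 sinusoidal endothelium markers, Lyve1 and Kdr, summed to 16.05 to 91.3 in controls and 26.7 to 55.8 after LPS. Monocyte and neutrophil markers are given with the LPS results. The header of the inbred table set the 5 LPS libraries apart from the 12 controls. The library names of controls, as those of all 9 hybrid libraries, gave a trim to 30 bases that the names of inbred LPS libraries did not. The methods of the study give this trim for its ATAC-seq data and name no exception, so this difference is known from the names only. The LPS columns held whole tags only, whereas 39.8 to 49.7% of values in control columns were not whole. The names of the C57BL/6J LPS libraries also held a shift of positions, which those of the C57BL/6J controls did not. In the inbred strains LPS and these differences in library handling therefore cannot be told apart. Hybrid libraries, which shared the trim, are therefore given for LPS results where they could be tested, and many of the peaks named below held too few variant-spanning tags for a test. Whether this handling had a part in the results was not tested beyond the values given here. C57BL/6J LPS replicate 1 stood apart from the other LPS libraries of its group. Over the 640 LINE peaks that were higher with LPS in BALB/cJ, its median log2 ratio to the C57BL/6J control mean was 0.65, against 1.65 and 1.77 in replicates 2 and 3.

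Sequences of the LINE peaks that the results below turn on are given here from the mm10 reference, which is the genome of C57BL/6J. The first set comprises 4 LINE peaks that opened with LPS in both inbred strains, in an L2a element 3.16 kb upstream of the annotated start of Il33 and placed in an intron (chr19:29942529-29942729), an L2 element in an intron of Nsmce2 (chr15:59448826-59449026), an Lx8 element in an intron of Daam1 (chr12:71903358-71903558) and an L1MB5 element 6.45 kb upstream of Serpina3i (chr12:104256571-104256771). Capitals mark matches to the AP-1 motif TGANTCA, read on both strands.
Il33 L2a: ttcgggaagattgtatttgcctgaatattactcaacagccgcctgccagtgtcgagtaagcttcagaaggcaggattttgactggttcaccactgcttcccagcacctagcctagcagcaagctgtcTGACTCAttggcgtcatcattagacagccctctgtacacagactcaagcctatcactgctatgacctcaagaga
Nsmce2 L2: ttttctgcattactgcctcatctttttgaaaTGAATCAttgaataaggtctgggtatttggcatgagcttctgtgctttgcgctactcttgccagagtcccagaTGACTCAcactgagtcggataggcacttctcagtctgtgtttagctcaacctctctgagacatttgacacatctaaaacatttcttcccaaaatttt
Daam1 Lx8: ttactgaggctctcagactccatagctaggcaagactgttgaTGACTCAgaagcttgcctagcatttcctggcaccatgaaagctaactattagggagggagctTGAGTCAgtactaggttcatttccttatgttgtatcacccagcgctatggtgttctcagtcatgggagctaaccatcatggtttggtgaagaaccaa
Serpina3i L1MB5: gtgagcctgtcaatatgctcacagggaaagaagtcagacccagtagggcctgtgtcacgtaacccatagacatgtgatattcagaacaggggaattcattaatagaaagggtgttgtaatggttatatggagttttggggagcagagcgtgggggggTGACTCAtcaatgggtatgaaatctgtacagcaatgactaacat

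The second set shows 3 LINE peaks that differed between strains and between the alleles of the hybrid, in an L1ME1 element in an intron of Cacna1a (chr8:84420606-84420806), an L1MB2 element in an intron, with Ttc27 as the nearest gene (chr17:74802839-74803039), and a young L1_Mus3 element 63.3 kb from the start of Gcnt1 (chr19:17276075-17276275). Capitals mark the AP-1 match in the first 2 and the match to the C/EBP motif TTGCNNAA, read on both strands, in the Gcnt1 peak. The alleles of the other strains were not read.
Cacna1a L1ME1: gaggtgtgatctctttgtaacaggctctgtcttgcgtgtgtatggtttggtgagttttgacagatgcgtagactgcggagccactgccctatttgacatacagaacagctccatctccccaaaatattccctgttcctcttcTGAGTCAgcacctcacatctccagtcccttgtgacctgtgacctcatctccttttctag
Ttc27 L1MB2: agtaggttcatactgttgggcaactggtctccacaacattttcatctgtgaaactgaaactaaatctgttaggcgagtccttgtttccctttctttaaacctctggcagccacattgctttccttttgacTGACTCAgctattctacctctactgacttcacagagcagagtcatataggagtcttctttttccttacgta
Gcnt1 L1_Mus3: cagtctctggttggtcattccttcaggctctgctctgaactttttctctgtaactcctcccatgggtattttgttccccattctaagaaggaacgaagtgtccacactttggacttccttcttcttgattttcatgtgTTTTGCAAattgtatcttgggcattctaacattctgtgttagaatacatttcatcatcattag

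The third set shows how alike young L1 peaks are. Peaks in L1_Mus2 elements near Cdk14 (chr5:5418402-5418602) and Bcl2l14 (chr6:134310324-134310524, shown on the minus strand) shared the 60 bases in capitals.
Cdk14 L1_Mus2: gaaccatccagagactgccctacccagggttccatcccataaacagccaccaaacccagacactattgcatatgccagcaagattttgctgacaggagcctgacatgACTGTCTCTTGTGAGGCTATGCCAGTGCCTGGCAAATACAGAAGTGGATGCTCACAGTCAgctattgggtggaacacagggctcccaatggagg
Bcl2l14 L1_Mus2: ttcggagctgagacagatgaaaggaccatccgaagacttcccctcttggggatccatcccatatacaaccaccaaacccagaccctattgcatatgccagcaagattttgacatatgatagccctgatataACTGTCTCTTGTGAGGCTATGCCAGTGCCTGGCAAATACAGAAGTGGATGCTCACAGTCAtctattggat

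These last peaks belonged to the largest of 23 clusters of LINE peaks that shared 20 or more 30-mers, the 30-base words of the peak's 201-base sequence. That cluster had 8 members on 7 chromosomes, 5 in L1_Mus2 and 3 in L1_Mus1 elements, and the clusters held 65 LINE peaks in all, 42 of them in young mouse L1. Only 4 of the 213 young L1 peaks (1.88%) had no 30-mer that recurred elsewhere in mm10, against 59.8% of Lx peaks, 89.6% of other L1 peaks, 96.0% of L2 peaks and 85.7% of all autosomal peaks outside promoters. Reads that fit several copies cannot be assigned to one of them, so values of young L1 peaks are uncertain as to the copy they came from.

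LINE peaks lay in intergenic sequence (1685) and introns (1637), and 26.3% were within 10 kb of an annotated start, against 39.4% of autosomal peaks outside promoters. The share within 10 kb was 35.4% for L2 and 22.5% for young L1 peaks. The counts, taken by the authors in windows of 1000 bases, were scaled by effective library size to normalised counts. The median over LINE peaks of the mean normalised count in the 17 inbred libraries was 15.9, close to the 17.1 of all autosomal peaks outside promoters. It was 11.3 for young L1, 14.7 for Lx, 17.4 for other L1, 16.5 for L2 and 19.3 for CR1 peaks. Among the peaks of highest level, an L3 peak of the CR1 family 42.2 kb upstream of Pik3cb, which encodes a catalytic subunit of phosphoinositide 3-kinase (chr9:99182277-99182477), had 264 to 441 in all 12 controls and 186 to 291 in all 5 LPS libraries.

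The first comparison asked how far natural genetic variation between strains changed the accessibility of LINE peaks in untreated mice. Calls required an adjusted p under 0.05 (edgeR, quasi-likelihood test, Benjamini-Hochberg over all peaks tested) and an absolute log2 ratio over 1, and a peak entered the test with a mean normalised count over 16. In C57BL/6J against BALB/cJ, 1548 LINE peaks were tested, and 55 were higher and 88 lower in C57BL/6J. This was 9.24% of those tested, against 7.29% of all peaks (3.14% higher and 4.16% lower) and 8.67% of autosomal peaks outside promoters. In A/J against BALB/cJ, 39 of 1552 were higher and 86 lower in A/J (8.05%, against 4.58% of all peaks, 1.58% higher and 3.00% lower). In A/J against C57BL/6J, 64 of 1511 were higher and 102 lower in A/J (10.99%, against 7.16% of all peaks, 3.29% higher and 3.87% lower). Of autosomal peaks outside promoters, 5.6% were called in A/J against BALB/cJ and 8.48% in A/J against C57BL/6J. The LINE median log2 ratios of the 3 comparisons lay between -0.06 and 0.02, and those of all peaks between -0.01 and 0.02.

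By family, in C57BL/6J against BALB/cJ, 4 of 227 tested L2 peaks were higher and 19 lower in C57BL/6J, whereas L1 peaks were called 49 times higher and 63 times lower of 1240. Of all L2 peaks, 67 (14.0%) were in the peak list of BALB/cJ controls alone and 4 (0.84%) in that of C57BL/6J controls alone. Autosomal peaks outside promoters gave 13.8% and 2.13%, so the excess of the BALB/cJ list was not particular to L2. The BALB/cJ controls included replicate 4, with 178 M tags. Within L1, Lx peaks were called 28 times higher and 24 times lower of 425 (12.2%), other L1 peaks 17 and 31 times of 725 (6.62%) and young L1 peaks 4 and 8 times of 90 (13.3%). In A/J against C57BL/6J, Lx8 peaks, the subfamily with most peaks, were called once higher and 19 times lower in A/J of 123 tested, whereas L2 peaks were called 12 times each way of 220. The 3 strain comparisons share libraries, so that their counts are not independent of one another.

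Several LINE peaks held tags in some strains and few or none in others. Peaks named for the largest ratios, here and with LPS below, were chosen among those whose compared groups did not overlap. For these peaks the lack of overlap is a condition of choice and not a result. The strain genomes of the study did not include larger structural variants. At peaks without tags in A/J or BALB/cJ, closed chromatin therefore cannot be told apart from sequence that is absent or not aligned. The Tox4 L1MB3 peak, intronic and 11.6 kb from the start of Tox4, which encodes a nuclear HMG-box protein (chr14:52267443-52267643), had 42.9, 57.8, 65.03 and 51.9 normalised counts in C57BL/6J controls and 0 in all 8 A/J and BALB/cJ controls. It was at least 228-fold higher in C57BL/6J than in BALB/cJ (adjusted p = 4.09e-11, edgeR), taking 3 counts over the group as the floor. After LPS it had 44.9, 45.0 and 30.3 in C57BL/6J and 0 in both BALB/cJ libraries. Tags were thus found in C57BL/6J libraries only, with and without LPS.

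The Cacna1a L1ME1 peak, within the gene of a neuronal calcium channel subunit, showed the opposite pattern. It had 168, 129, 148 and 149 normalised counts in A/J controls, 165, 178, 132 and 140 in BALB/cJ controls and 0.580, 1.60, 1.30 and 2.66 in C57BL/6J controls. The log2 ratio of C57BL/6J to BALB/cJ was -6.78 ± 0.39 (SE, adjusted p = 5.05e-15, edgeR). After LPS it had 79.3 and 79.2 in BALB/cJ and 0, 0 and 3.19 in C57BL/6J, so that the strain groups did not overlap under either treatment.

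The Trim30d Lx4A peak, in an intron 1.97 kb from the start of a gene of the TRIM30 family of immune regulators (chr7:104505780-104505980), followed the same split. It had 103, 128, 89.5 and 132 normalised counts in A/J controls, 128, 134, 103 and 81.8 in those of BALB/cJ and 2.90, 0, 0 and 1.33 in C57BL/6J controls, with a log2 ratio of C57BL/6J to BALB/cJ of -6.12 ± 0.44 (SE, adjusted p = 8.66e-13, edgeR). C57BL/6J libraries were far below those of both other strains.

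A/J differed from both other strains at a further set of peaks. The Dennd1b L1MA8 peak, 23.1 kb upstream of a gene for a regulator of endocytic traffic (chr1:138940485-138940685), had 0 in all 4 A/J controls, 79.1, 186, 107 and 111 in BALB/cJ controls and 159, 183, 78.04 and 93.1 in C57BL/6J controls, and A/J was at least 103-fold lower than BALB/cJ (adjusted p = 6.46e-12, edgeR). The Vrk2 L1_Mus2 peak (chr11:26639583-26639783), near the gene of a serine/threonine kinase, had 0 to 3.28 in A/J, 35.9 to 94.9 in BALB/cJ and 47.9 to 100 in C57BL/6J controls. Conversely, the Arl15 Lx8b peak (chr13:113741875-113742075) had 60.1, 71.1, 97.7 and 120 in A/J and 0 to 1.30 in the 8 other controls, and the Zmat3 Lx9 peak (chr3:32389129-32389329) had 30.5 to 70.4 in A/J and 0 to 2.92 in the others. In these 4 peaks A/J did not overlap either other strain, which for peaks named by their ratio was a condition of choice.

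Near immune genes, the Ptpn22 Lx8 peak, 2.23 kb upstream of the gene of a lymphoid tyrosine phosphatase (chr3:103857462-103857662), had 27.8 to 59.0 normalised counts in A/J, 3.96 to 8.05 in BALB/cJ and 53.0 to 88.4 in C57BL/6J controls, with a log2 ratio of C57BL/6J to BALB/cJ of 3.92 ± 0.35 (SE, adjusted p = 1.42e-10, edgeR). The Ifi203 Lx8b peak, in an intron of a gene of the interferon-inducible p200 family (chr1:173940403-173940603), had 18.5, 8.75, 24.4 and 36.0 in A/J controls, 40.9, 43.9, 65.8 and 94.1 in those of BALB/cJ and 5.80, 4.81, 3.90 and 6.65 in C57BL/6J controls. C57BL/6J was the lowest and BALB/cJ the highest, without overlap. After LPS it rose to 7.02, 44.1 and 36.6 in C57BL/6J (log2 ratio 2.48 ± 0.50, adjusted p = 0.000349, edgeR), with replicate 1 close to the controls, and was 67.1 and 65.1 in BALB/cJ. The test of the difference between these responses missed the threshold (2.41 ± 0.67 on the log2 scale, adjusted p = 0.227, edgeR). In control hybrids the BALB/cJ allele had 22.9, 24.4, 35.9 and 11.7 variant-spanning counts and the C57BL/6J allele 6.92, 13.4, 2.04 and 4.79. These overlapped through a single library of each allele and were too low to test. After LPS the alleles had 47.5 to 86.2 and 53.4 to 75.1 (log2 ratio -0.03 ± 0.19, adjusted p = 0.925, edgeR). Summed over alleles the peak was higher with LPS in the hybrid (1.54 ± 0.27, adjusted p = 6.52e-05, edgeR).

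Among L2 peaks, the Fam19a1 L2a peak (chr6:96087066-96087266), near the gene of a secreted chemokine-like protein, had 33.0, 30.2, 65.8 and 56.0 normalised counts in BALB/cJ, 2.04 to 7.71 in A/J and 3.21 to 13.3 in C57BL/6J controls (log2 ratio of C57BL/6J to BALB/cJ -2.52 ± 0.38, adjusted p = 7.12e-06, edgeR). The Epas1 L2 peak, near the gene of the hypoxia factor HIF-2α (chr17:86677432-86677632), was ordered alike, with 41.9 to 77.8 in BALB/cJ, 10.6 to 32.1 in C57BL/6J and 6.17 to 14.1 in A/J. Both were called higher with LPS in C57BL/6J (log2 ratios 1.33 and 1.10), and neither was in BALB/cJ (0.21 and 0.16). The test of the difference between these responses missed the threshold at both, with 1.13 ± 0.58 for Fam19a1 and 0.94 ± 0.47 for Epas1 (adjusted p = 0.652 and 0.646, edgeR). The Ank2 L2 peak (chr3:127035590-127035790) was highest in C57BL/6J, at 53.0 to 108 against 9.23 to 37.8 in BALB/cJ and 18.6 to 52.9 in A/J, and the L2 peak 13.7 kb upstream of Itgam, which encodes the integrin CD11b (chr7:128048864-128049064), was higher in A/J (43.2 to 93.9) than in C57BL/6J (19.7 to 31.9).

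The hybrid asked whether a strain difference persisted between alleles that share one nucleus. Only variant-spanning tags were counted there, so few LINE peaks could be tested, 90 in controls and 183 after LPS. In controls 9 were higher on the C57BL/6J and 7 on the BALB/cJ allele (17.8%, against 9.26% of all peaks, 4.97% and 4.28% by allele), and after LPS 26 and 17 (23.5%, against 18.7% of all peaks, 10.4% and 8.29%). The shares of autosomal peaks outside promoters were 12.8% and 22.2%. The 16 calls in controls fell to 9 without CB6F1/J control replicate 1, and none of 603 peaks was called with edgeR when no minimum count was set (86 at an unadjusted p under 0.05, and 21 by DESeq2). Of the 55 LINE peaks higher in C57BL/6J than in BALB/cJ control mice, 12 were tested between alleles, all 12 had a positive log2 ratio and 8 were called (median 1.94). Of the 88 higher in BALB/cJ, 12 were tested, 9 were negative and 6 were called (median -1.62). Among autosomal peaks outside promoters, 273 of 284 were positive with 135 called, and 273 of 284 negative with 129 called. After LPS, all 24 tested peaks that had been higher in C57BL/6J mice were positive and 20 were called, and all 16 that had been higher in BALB/cJ were negative and 6 were called. Outside promoters these were 359 positive of 372 with 282 called, and 409 negative of 424 with 259 called.

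The alleles of the Cacna1a peak carried 99.6, 92.0, 49.7 and 85.7 normalised counts (BALB/cJ) and 4.33, 4.48, 0 and 0 (C57BL/6J) in the 4 control hybrids, a log2 ratio of -5.21 ± 0.54 (SE, adjusted p = 0.00438, edgeR with a term for each animal). At the Gcnt1 L1_Mus3 peak, near the gene of a core 2 O-glycan glycosyltransferase, the C57BL/6J allele had 179, 111, 128 and 168 and the BALB/cJ allele 4.41, 9.31, 7.40 and 10.7, and inbred C57BL/6J controls had 147, 167, 161 and 184 against 0 to 1.95 in BALB/cJ. The log2 ratio was 8.53 ± 0.56 between strains (adjusted p = 1.36e-13, edgeR) and 4.20 ± 0.28 between alleles (adjusted p = 0.00178, edgeR). The alleles did not overlap at either peak. This young L1 peak had recurring 30-mers over 63.4% of its sequence. The allele counts rest on tags that span a variant, and whether such tags came from this copy was not tested. At the Trim30d peak the BALB/cJ allele had 105, 102, 110 and 103 and the C57BL/6J allele 6.92, 20.2, 1.02 and 4.79 (log2 ratio -3.80 ± 0.50, adjusted p = 0.00736, edgeR).

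At these 3 peaks the allele ratio was smaller in size than the strain ratio, and the same held at the Smchd1 and Ttc27 peaks. The Smchd1 Lx8 peak, upstream of the gene of a chromatin protein that maintains silencing of the inactive X chromosome (chr17:71483855-71484055), had 188, 199, 212 and 149 in C57BL/6J and 0.975 to 4.03 in BALB/cJ controls, a log2 ratio of 6.43 ± 0.37 (SE, adjusted p = 7.25e-15, edgeR). Between alleles it had 57.1, 44.8, 43.9 and 41.2 (C57BL/6J) and 9.70, 12.8, 6.34 and 8.76 (BALB/cJ), a log2 ratio of 2.32 ± 0.28 (adjusted p = 0.00592, edgeR). The Ttc27 peak gave 6.45 ± 0.43 between strains and 2.46 ± 0.26 between alleles. Other peaks went the other way in controls. The allele and strain ratios were -6.71 and -6.10 at the Lpin1 L1M4 peak, and -1.41 and -0.68 at the Srbd1 L1MC4 peak. The difference between a strain ratio and an allele ratio was not tested, and the counts differ in the tags they hold. The plot of strain against allele ratios shows the 14 peaks called in both with controls and the 26 called in both after LPS, all in the same direction.

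**Figure D1:**
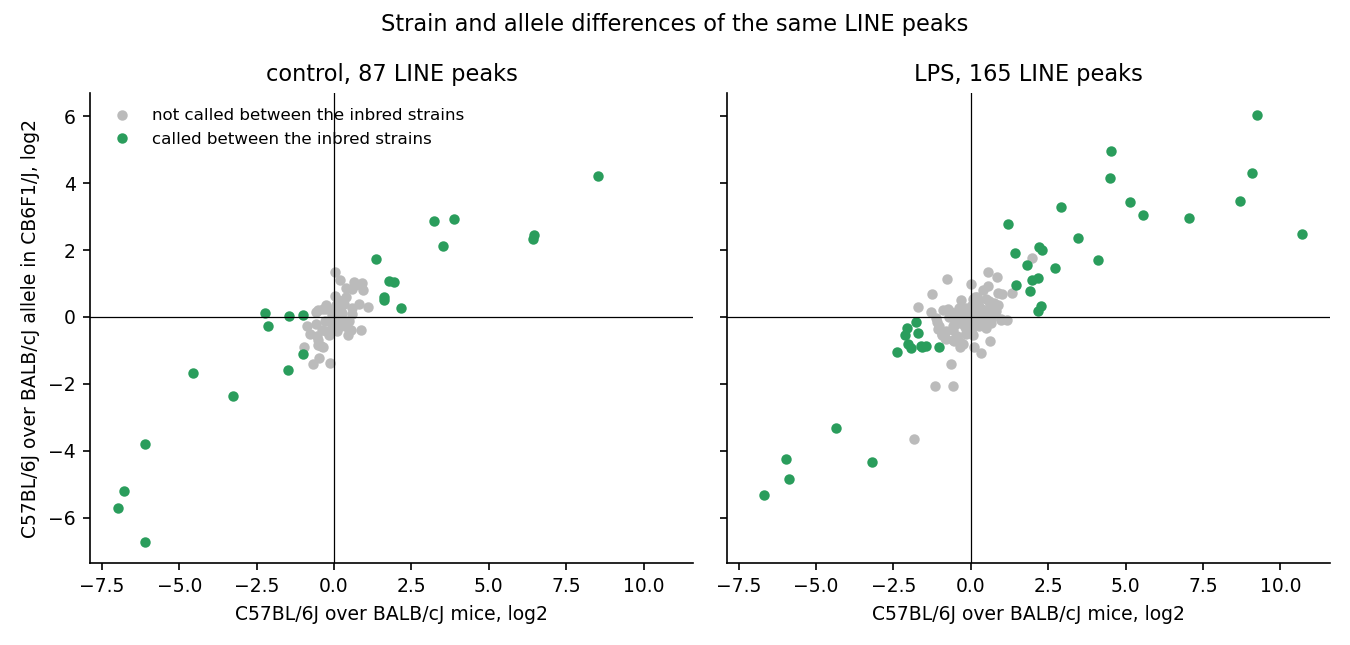
LINE peaks tested both between inbred strains and between alleles, in controls (left, 87 peaks) and after LPS (right, 165 peaks), with the log2 ratio of C57BL/6J to BALB/cJ mice on the x axis and that of the alleles in CB6F1/J on the y axis. Green points, called between the inbred strains, run from the lower left to the upper right.

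The next comparison asked how LINE peaks responded to LPS. After LPS, a larger share of all tags lay in LINE peaks. The share of autosomal tags was 2.14 ± 0.14% in A/J, 2.28 ± 0.10% in BALB/cJ and 2.16 ± 0.07% in C57BL/6J controls (SD, n = 4 each), and 2.77 ± 0.03% in BALB/cJ LPS (n = 2) and 2.61 ± 0.15% in C57BL/6J LPS (n = 3). The LPS libraries (2.43 to 2.79%) did not overlap the controls (1.99 to 2.38%), whereas the control strains overlapped. In the hybrid, with other tags counted, the share was 1.69 ± 0.03% in controls (n = 4) and 2.14 ± 0.08% after LPS (n = 5), without overlap.

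L2 elements took part in this, with 0.311 ± 0.014% in C57BL/6J control and 0.422 ± 0.031% in C57BL/6J LPS libraries, and 0.349 ± 0.018% and 0.465 ± 0.004% in BALB/cJ. CR1 shares overlapped between treatments, at 0.118 to 0.145% in all 17 libraries. Peaks in SINE and LTR elements held larger shares after LPS too (SINE 1.82 to 2.09% in controls and 2.29 to 2.58% after LPS, LTR 3.93 to 4.57% and 5.00 to 5.41%), while promoters held 35.2 to 41.0% in controls and 28.4 to 34.5% after LPS. Of tags outside promoters, LINE peaks held 3.34 to 3.67% in controls and 3.71 to 3.97% after LPS, so that the difference was smaller on this denominator. Fewer cells with an open site and less opening per cell cannot be told apart in these bulk samples.

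**Figure D2:**
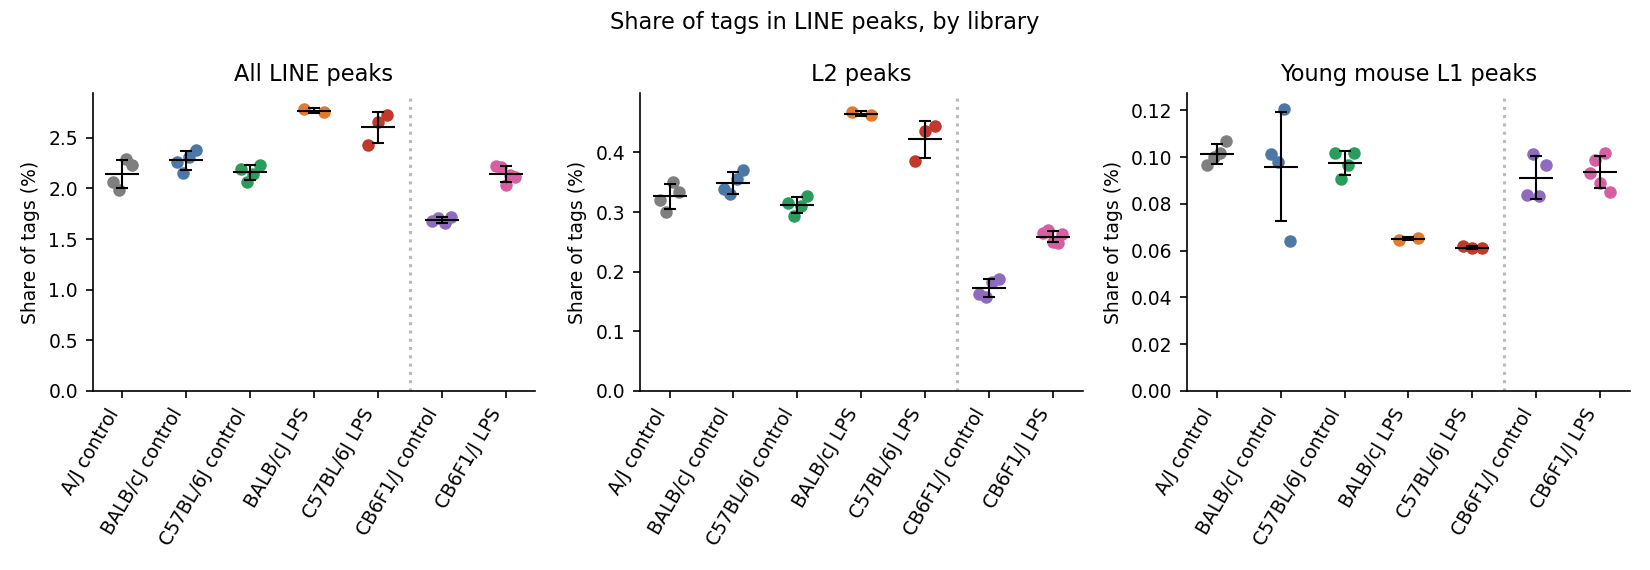
Share of tags (%) in all LINE peaks, L2 peaks and young mouse L1 peaks, with a point per library and black bars for the mean ± SD. Inbred groups are shares of autosomal tags and the hybrid groups, right of the dotted line, shares of variant-spanning tags. LPS libraries lie above controls for LINE and L2 peaks, whereas inbred LPS libraries lie below all controls except BALB/cJ control replicate 4 for young L1 peaks.

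Peak by peak, 3106 LINE peaks were tested in C57BL/6J (mean normalised count over 4), of which 536 were higher with LPS (17.3%, against 12.3% of all peaks) and 194 lower (6.25%, against 8.07%). In BALB/cJ 640 of 3181 were higher (20.1%, against 16.2% of all peaks) and 294 lower (9.24%, against 11.3%). Autosomal peaks outside promoters gave 14.2% and 7.17% in C57BL/6J, against 18.4% and 9.89% for BALB/cJ, so that the LINE shares were nearer to these than to those of all peaks. LINE peaks had a median log2 ratio of 0.15 in C57BL/6J, where all peaks had -0.03, and of 0.05 in BALB/cJ, where all peaks had -0.07. Among hybrid libraries 101 of 500 were higher (20.2%, against 12.2% of all peaks) and 53 lower (10.6%, against 12.2%). There autosomal peaks outside promoters gave 18.2% and 11.4%, to which the LINE shares were again nearer. Without C57BL/6J LPS replicate 1, 638 LINE peaks were higher and 247 lower in C57BL/6J, and without replicate 3 326 and 101. Without BALB/cJ LPS replicate 2 the counts in BALB/cJ were 430 and 107. The only monocyte marker with a promoter peak, Plac8 of 5 genes, had 1.32 to 18.2 normalised counts in all 12 controls and 6.10 to 34.0 after LPS, and 2 of 5 neutrophil markers summed to 92.3 to 189 and 91.5 to 144, and their part in these results was not tested.

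L2 peaks were called higher most often of the larger classes and young L1 peaks lower most often. Of L2 peaks, 95 of 451 were higher and 13 lower in C57BL/6J (21.1 and 2.88%), and 115 and 32 of 463 in BALB/cJ (24.8 and 6.91%). In the hybrid 16 of 61 tested L2 peaks were higher and 5 lower (26.2 and 8.20%). Of other L1 peaks, 259 and 59 of 1404 were called in C57BL/6J, and of Lx peaks 151 and 50 of 925. Young L1 peaks were reversed, with 11 higher and 64 lower of 188 in C57BL/6J (34.0% lower, median log2 ratio -1.03) and 12 and 62 of 192 in BALB/cJ (32.3% lower, median -0.98). Among Lx subfamilies Lx8 had 53 higher and 10 lower peaks of 269 in C57BL/6J. By place, 18.1% of intergenic and 16.4% of intronic LINE peaks were higher in C57BL/6J, while BALB/cJ gave 19.5 and 20.8%.

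**Figure D3:**
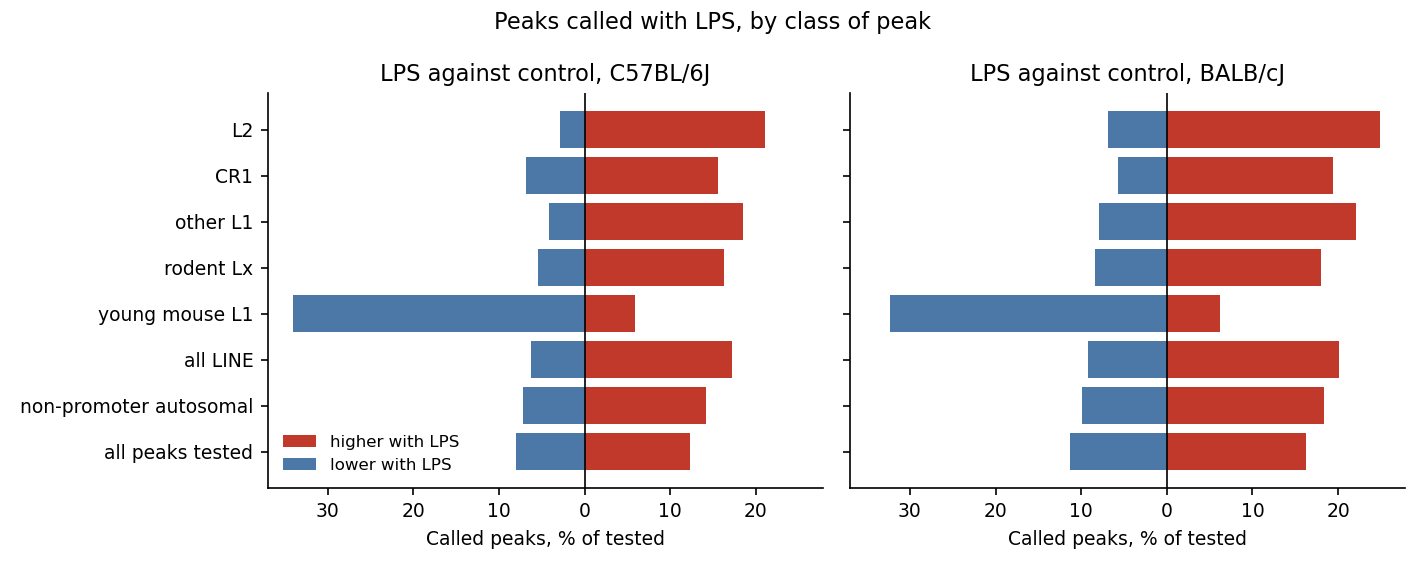
Share of tested peaks (%) called higher (red, to the right) and lower (blue, to the left) with LPS, by class of LINE peak and for the background sets, in C57BL/6J and BALB/cJ. L2 peaks have the longest red bars, and young mouse L1 peaks the longest blue bars, 34.0 and 32.3%.

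Of 2980 LINE peaks tested in both strains, 406 were higher in both (13.6%, against 9.73% of all peaks), 116 lower in both (3.89%, against 5.13%) and none was called in opposite directions. Autosomal peaks outside promoters gave 11.2% and 4.27%, to which the LINE shares were nearer. The libraries of the 2 strains are separate mice. Of the 406, 374 had a counterpart in the hybrid table and 49 could be tested there, of which 44 had a positive log2 ratio, 38 were called higher and none lower (median 2.40). Of autosomal peaks outside promoters that were higher in both strains, 1050 of 1090 were positive and 797 called. All 12 tested of the 116 lower peaks were negative in the hybrid, and 6 were called (median -1.75), against 333 negative of 366 and 189 called outside promoters.

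The L2 peak of the sequence from Il33, which encodes an alarmin of the interleukin-1 family, was nearly closed before LPS. It had 0 to 4.03 normalised counts in the 12 controls, 27.9 and 36.1 in BALB/cJ LPS and 5.62, 53.5 and 86.0 in C57BL/6J LPS libraries. Every LPS library was above every control, with C57BL/6J replicate 1 closest to them. The log2 ratio was 5.13 ± 0.74 in C57BL/6J (SE, adjusted p = 4.84e-06, edgeR) and 4.17 ± 0.71 in BALB/cJ (adjusted p = 2.62e-05, edgeR).

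The Nsmce2 L2 peak, in the gene of a SUMO ligase of the SMC5/6 complex, had 0 to 6.56 in controls, 32.2 and 43.1 in BALB/cJ LPS and 2.81, 55.2 and 31.1 in C57BL/6J LPS libraries. The log2 ratio was 5.64 ± 1.01 in C57BL/6J (SE, adjusted p = 8.54e-05, edgeR) and 6.30 ± 0.99 in BALB/cJ (adjusted p = 9.4e-06, edgeR), with C57BL/6J replicate 1 within the range of controls. In the hybrid this peak had 0 to 4.69 variant-spanning counts in controls and 0 to 3.14 after LPS, too few to test. An L2 peak in an intron of Tab2, which links TRAF6 to the kinase TAK1 below Toll-like receptors (chr10:7943115-7943315), had 0 to 3.28 in controls, 41.8 and 47.5 in BALB/cJ LPS and 1.40, 27.2 and 50.2 in C57BL/6J LPS libraries (log2 ratios 5.02 ± 0.82 and 5.63 ± 0.76 in C57BL/6J and BALB/cJ).

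The Serpina3i L1MB5 peak, near a gene of the serpin cluster of acute-phase protease inhibitors, had 0 to 5.47 normalised counts in controls, 40.1 and 55.4 in BALB/cJ LPS and 8.43, 68.8 and 60.5 in C57BL/6J LPS libraries. The log2 ratio was 7.09 ± 0.90 in C57BL/6J (adjusted p = 8.13e-07, edgeR), where the size is uncertain because the control tags summed to only 0.5, and 4.87 ± 0.67 in BALB/cJ (adjusted p = 1.39e-06, edgeR). The Daam1 Lx8 peak, in the gene of a formin that organises actin, had 0 to 2.66 in controls, 36.6 and 23.7 in BALB/cJ LPS and 8.43, 22.1 and 1.59 in C57BL/6J LPS libraries, where replicate 3 lay within the controls. Both peaks were called in both strains.

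The Apaf1 L1MB4 peak, in an intron with Apaf1 of the apoptosome as the nearest gene (chr10:91029063-91029263), was one of few that could be followed in all mice. It had 13.9 to 18.3 in A/J, 10.6 to 23.8 in BALB/cJ and 0 to 1.60 in C57BL/6J controls, and 109 and 88.8 in BALB/cJ and 2.81, 35.7 and 43.8 in C57BL/6J after LPS. LPS libraries were above the controls of their strain. In the hybrid the variant-spanning counts were 4.21, 19.7, 0 and 7.04 in controls and 31.8, 51.7, 48.2, 28.9 and 52.2 after LPS (log2 ratio 2.47 ± 0.56, adjusted p = 0.00139, edgeR), without overlap. The strain difference in response was 3.11 ± 1.04 on the log2 scale (adjusted p = 0.383, edgeR).

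LINE peaks near Kupffer cell and inflammatory genes were counted by list. Of all peaks, C57BL/6J had 12.3% higher and 8.07% lower, while for BALB/cJ these shares were 16.2% and 11.3%. Each list held few peaks, so that its counts are given as a description. Of 25 LINE peaks nearest to 11 of 26 Kupffer cell identity genes, 5 of 25 tested were higher and 1 lower in C57BL/6J, and 7 and 1 of 24 in BALB/cJ (median log2 ratios 0.28 and 0.29). A LINE peak near Kcna2 held 44 tags after LPS and 1 in controls of BALB/cJ, summed over libraries. Another rise was at the Lx5b peak in an intron of Adgre1, which encodes the macrophage marker F4/80 (chr17:57375389-57375589), with 0 to 6.65 in controls, 45.3 and 45.7 in BALB/cJ LPS and 7.02, 43.3 and 43.0 in C57BL/6J LPS libraries (log2 ratios 5.34 ± 0.66 and 3.36 ± 0.60 in BALB/cJ and C57BL/6J). Its window was partly repeated, with 22.7% of its 30-mers found elsewhere.

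Of 19 LINE peaks near 11 of 25 NF-kB genes, 5 of 17 tested were higher and 2 lower in C57BL/6J and 4 and 2 of 15 in BALB/cJ, with medians of -0.18 and -0.29 (all peaks 12.3% and 8.07%, and 16.2% and 11.3%). The Lx7 peak 76.7 kb from the start of Tnfaip3, which encodes the NF-kB inhibitor A20 (chr10:18935214-18935414), had 0 in all 12 controls, 0.871 and 0 in BALB/cJ LPS and 4.21, 16.1 and 25.5 in C57BL/6J LPS libraries, at least 22.1-fold higher with LPS in C57BL/6J (adjusted p = 0.000455, edgeR), and had 0 to 2.89 in the hybrid libraries. The L1ME1 peak in an intron of Traf1 (chr2:34951352-34951552), a signalling adaptor of the TNF receptor family, had 0 to 1.38 in controls, 23.5 and 23.7 in BALB/cJ LPS and 1.40, 16.98 and 2.39 in C57BL/6J LPS libraries (log2 ratio 4.68 ± 0.91 in BALB/cJ, adjusted p = 0.000225, edgeR).

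Near cytokine and chemokine genes, 1 of 9 LINE peaks was higher and none lower in C57BL/6J, and 1 of 10 was higher and 1 lower in BALB/cJ, from 11 peaks at 9 of 28 genes, with the same shares of all peaks (12.3% and 8.07%, and 16.2% and 11.3%) as for the lists that follow. The Lx8 peak 18.5 kb upstream of Il1a, which encodes interleukin-1α (chr2:129328350-129328550), had 10.9 to 15.7 in A/J, 14.5 to 38.0 in BALB/cJ and 9.31 to 28.4 in C57BL/6J controls and 31.4 to 56.9 after LPS, a log2 ratio of 1.21 ± 0.37 in C57BL/6J (adjusted p = 0.013, edgeR) and 0.91 ± 0.39 in BALB/cJ (adjusted p = 0.075, edgeR). Of 11 LINE peaks at 9 of 28 interferon response genes, 2 of 11 were higher in C57BL/6J and 1 of 10 in BALB/cJ, and none was lower. Of 13 at 8 of 26 genes of LXR and lipid handling, 2 of 12 and 3 of 13 were higher and none lower. Among these were 2 L1M3 peaks with overlapping windows 24.6 and 24.9 kb from the start of Smpdl3a, an LXR target that encodes a phosphodiesterase (chr10:57819011-57819211 and chr10:57819371-57819571), where the first had 0 to 5.32 in controls, 54.0 and 58.9 in BALB/cJ LPS and 12.6, 55.2 and 62.9 in C57BL/6J LPS libraries.

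Fewer L2 peaks were lower with LPS. The Dusp1 L2 peak, 7.43 kb from the start of a phosphatase gene that limits MAP kinase signalling (chr17:26500946-26501146), had 26.2, 32.8, 12.2 and 3.13 in A/J controls, 38.2, 22.4, 4.03 and 7.92 in those of BALB/cJ and 9.86, 17.6, 9.10 and 10.6 in C57BL/6J controls, and 0 to 2.39 in the 5 LPS libraries. All LPS libraries were below all controls, although the controls varied among themselves. The log2 ratio was -3.10 ± 0.90 in C57BL/6J (adjusted p = 0.0098, edgeR) and -5.05 ± 1.19 in BALB/cJ (adjusted p = 0.00125, edgeR). The Hspa8 L2b peak, near the gene of a constitutive HSP70 chaperone (chr9:40809746-40809946), had 11.7 to 38.3 in controls and 0.796 to 12.2 after LPS, and in the hybrid 0 to 8.46 and 0 to 3.62 variant-spanning counts, too few to test. The Creb1 L2 peak, 1.86 kb upstream of the gene of the cAMP response factor (chr1:64530848-64531048), was lower in C57BL/6J (17.3 to 32.1 in controls and 4.78 to 11.2 after LPS) and had 9.49 to 18.5 and 13.2 to 14.8 in BALB/cJ. At the high-level Pik3cb peak the log2 ratio was -0.52 ± 0.15 in C57BL/6J, against -0.95 ± 0.18 for BALB/cJ, and neither passed the ratio threshold.

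Few peaks passed the test of a difference in response between the strains. Of 3264 LINE peaks tested for a strain difference in the LPS response, 1 was called each way, together 0.0613%, against 0.145% of all peaks (0.108% higher and 0.0368% lower in C57BL/6J). Between the strains after LPS, 61 of 1882 LINE peaks were higher and 59 lower in C57BL/6J (6.38%, against 5.28% of all peaks, 2.45% higher and 2.83% lower, and 5.95% of autosomal peaks outside promoters). Without BALB/cJ LPS replicate 2 these 120 calls fell to 60.

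AP-1, the dimer of FOS and JUN proteins that LPS induces, has the motif TGANTCA. A match was present in 43.6% of the 406 LINE peaks higher in both strains, in 9.94% of the 1931 called in neither and in 5.17% of the 116 lower in both. The contrast was present in both families, with 40.2% of 316 higher L1 peaks and 9.43% of 1559 uncalled ones, and 57.5% of 73 higher L2 peaks and 11.6% of 276 uncalled ones. It was not particular to LINE peaks, as autosomal peaks outside promoters had 52.2, 10.0 and 2.70%. Over all LINE peaks the share was 15.2%, against 15.9% outside promoters. A match is a description of the letters in the peak and not of a bound site. The Il33 and Serpina3i peaks each had 1 match and the Nsmce2 and Daam1 peaks 2, whereas the Tab2, Traf1 and Adgre1 peaks had none.

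Other motifs, read on both strands, varied less. GAGGAAGT, an ETS motif that PU.1 binds, was in 3.94% of higher and 12.6% of uncalled LINE peaks, and the C/EBP motif in 20.4 and 17.1%. GGANTTTCC of NF-kB was in 2.22 and 1.40%, GAAANNGAA of IRF factors in 11.6 and 12.4%, the MAF motif TGCTGAC in 6.40 and 5.90%, AGGGGGC of the CTCF core in 0.493 and 2.02% and AAGATGGC of YY1 in 1.72 and 1.09%. Over all autosomal peaks outside promoters the shares were 9.45% (PU.1), 12.4% (C/EBP), 1.64% (NF-kB), 9.55% (IRF), 5.93% (MAF), 4.61% (CTCF) and 1.07% (YY1). In young L1 peaks, whose copies share sequence, the C/EBP motif and the MAF motif were each in 22.1%, and AP-1 in 3.76%.

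**Figure D4:**
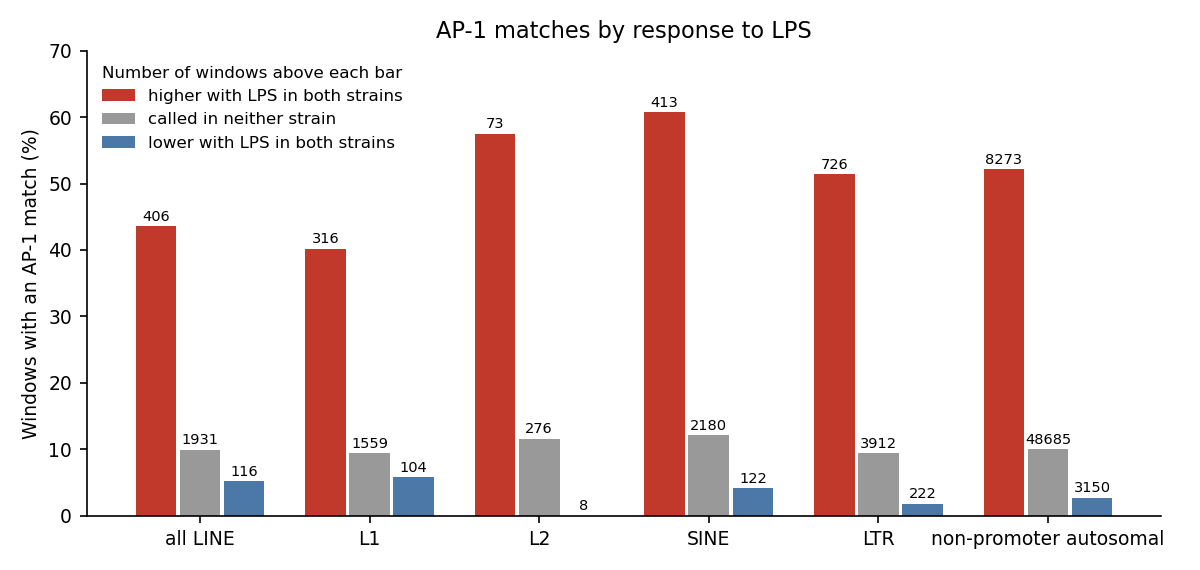
Share (%) of peaks with a match to the AP-1 motif, for LINE, L1, L2, SINE, LTR and all autosomal non-promoter peaks, by response to LPS in both inbred strains, with the number of peaks above each bar. The red bars (higher in both strains) are the tallest in every set, 43.6% for LINE and 57.5% for L2 peaks.

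The young L1 peaks that were lower with LPS lay largely in repeated sequence. The Ncaph L1Md_F2 peak, 1.51 kb upstream of a condensin gene (chr2:127135364-127135564), had 3.04 to 20.9 normalised counts in the 12 controls, 1.74 and 0 in BALB/cJ LPS and 0 in all C57BL/6J LPS libraries, and was at least 15.6-fold lower with LPS in C57BL/6J (adjusted p = 0.000126, edgeR). The Gins1 L1Md_F2 peak (chr2:150919412-150919612), in the gene of a replication factor, had 4.38 to 9.39 in A/J controls, 17.1, 4.88, 18.8 and 0 in those of BALB/cJ and 9.63 to 19.9 in C57BL/6J controls, and the Lysmd4 L1_Mus1 peak (chr7:67242504-67242704) 1.47 to 21.4 in controls, and both had 0 in all 5 LPS libraries. In these peaks 98.3, 100 and 92.4% of the 30-mers recurred elsewhere. BALB/cJ control replicate 4 was the lowest BALB/cJ control at all 3, at 3.04, 0 and 1.47. The Cntnap5b L1Md_F2 peak (chr1:100180147-100180347), in the gene of a neuronal adhesion protein, was one of the 4 young L1 peaks without recurring 30-mers in the peak itself, although its counting window is wider. It had 190, 280, 204 and 250 in A/J controls, 48.8, 54.6, 80.5 and 2.49 in those of BALB/cJ and 34.8, 67.4, 40.3 and 137 in C57BL/6J controls, and 0 to 5.09 in the LPS libraries. Here too replicate 4 of the BALB/cJ controls was at the level of LPS libraries.

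Over all LINE peaks the median log2 ratio of LPS to control in C57BL/6J and BALB/cJ was 0.22 and 0.11 for peaks without a recurring 30-mer, 0.03 and 0.00 for up to 25%, -0.37 and -0.39 for 25 to 50% and -1.37 and -1.46 for over 50% recurring 30-mers. The ratio of BALB/cJ control replicate 4, an untreated library, to the mean of replicates 1 to 3 followed the same order, with medians of 0.16, -0.01, -0.39 and -1.04. All autosomal peaks outside promoters with over 50% recurring 30-mers had medians of -1.12, -1.22 and -0.79 in the same 3 ratios. The share of autosomal tags in young L1 peaks was 0.0906 to 0.121% in 11 controls, 0.0642% in BALB/cJ control replicate 4 and 0.0609 to 0.0655% in the LPS libraries. In the hybrid, where the trim in the library names did not differ, the share of variant-spanning tags in young L1 peaks was 0.0911 ± 0.0091% in controls (n = 4) and 0.0936 ± 0.0069% after LPS (n = 5), which overlapped. Of 24 young L1 peaks tested there, 2 were higher and 6 lower (median -0.75), and of the 12 with over 50% recurring 30-mers 5 were lower (median -1.58). One of them, the Gcnt1 peak, had 223, 151, 173 and 218 in control and 93.3, 114, 56.6, 101 and 114 in LPS hybrids, without overlap, and its log2 ratio of -0.998 ± 0.21 (adjusted p = 0.000599, edgeR) fell just short of the ratio threshold. Among LINE peaks without recurring 30-mers, 18.3% of 2387 were higher and 3.81% lower in C57BL/6J, and 21.5% and 7.40% of 2447 in BALB/cJ.

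**Figure D5:**
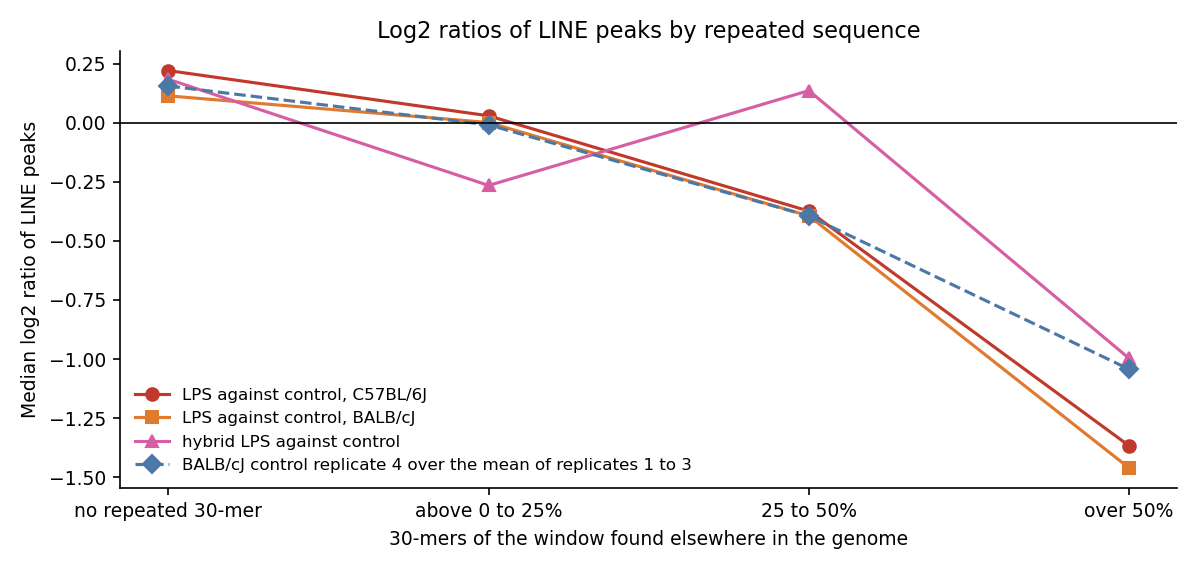
Median log2 ratio of LINE peaks by the share of the peak's 30-mers that recur in mm10, for LPS against control in C57BL/6J, BALB/cJ and the hybrid, and for BALB/cJ control replicate 4 against the mean of replicates 1 to 3 (dashed). All 4 lines are lowest above 50%, at -1.37, -1.46, -0.997 and -1.04, and the hybrid point at 25 to 50% rests on 15 peaks.

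Genes known to silence or restrict LINEs had few LINE peaks of their own. Of 38 genes 4 were nearest to 6 LINE peaks, of which the L1M2 peak in an intron of Rnaseh2b, a subunit of RNase H2 (chr14:62354008-62354208), was higher with LPS in both strains (log2 ratios 1.33 ± 0.48 and 1.45 ± 0.51). In the hybrid the Rnaseh2b peak had 6.57 to 11.6 variant-spanning counts in controls and 5.69 to 20.95 after LPS, which overlapped (0.54 ± 0.64, adjusted p = 0.571, edgeR). The Lx7 peak of Fam208a, which encodes TASOR of the HUSH silencing complex (chr14:27443901-27444101), was lower in BALB/cJ (-1.29 ± 0.51). Their promoters were present for 31 genes (47 peaks). In C57BL/6J 2 promoter peaks were higher (Apobec3 and Trex1) and 5 lower (Chd4, Dnmt1, Pphln1, Tet3 and Yy1), against 2.7% and 12.8% of autosomal promoter peaks. In BALB/cJ 1 was higher (Trex1) and 9 lower, against 4.98% and 19.1%. Their median log2 ratios were -0.37 and -0.58, and those of all promoter peaks -0.35 and -0.43. The promoter of Trex1, a DNA exonuclease that degrades cytosolic DNA, gave 1.41 ± 0.31 in C57BL/6J (adjusted p = 0.00102, edgeR) and 1.24 ± 0.34 in BALB/cJ (adjusted p = 0.00496, edgeR), and that of Dnmt1, the maintenance DNA methyltransferase, -1.09 ± 0.31 and -1.75 ± 0.36. Of 19 promoter peaks at 14 of 18 genes of nucleic acid sensing, 2 were higher and 2 lower in C57BL/6J, against 2 and 1 for BALB/cJ. Zbp1, a sensor of Z-form nucleic acids, was higher in both strains. Tbk1 had a promoter peak called higher and another called lower in both strains, and Ddx58 was lower in C57BL/6J. None of the 5 LINE peaks near these genes was called.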

How the data were processed

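ATAC-seq libraries of sorted Kupffer cells were analysed from the tables of the authors. Per the methods of the study, reads were checked with FastQC and aligned with Bowtie2 to strain genomes built from mm10, positions were shifted to mm10, and HOMER called, annotated and counted peaks. The tables the authors deposited hold tags per peak in 1000-base windows, not normalised. Values in control columns need not be whole, so they are expected counts, deposited by the authors, and steps of 0.5 were rounded up. The hybrid table holds variant-spanning tags per allele, also expected counts the authors deposited, and 36 of its columns were not used.

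The counts of all nuclear peaks were fitted with edgeR 4.0.16 in R 4.3.3 (TMM scaling, quasi-likelihood test), with all 17 inbred libraries in a fit of group means. Hybrid LPS was tested on the sum of alleles, and alleles with a term for the animal. Peaks needed a mean normalised count over 16 (strains, alleles) or 4 (LPS). Calls needed an adjusted p under 0.05 and an absolute log2 ratio over 1. LINE peaks were matched to the hybrid table by 50% reciprocal overlap. Scripts were tested on simulated data. Nothing states that libraries come from separate mice in every group, so p-values measure the spread between these libraries. Intervals and floors (3 counts over a group) cover counting error only.

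Named peaks were, by nearest gene, those with the largest ratios without overlap of groups (within 100 kb, 5 each way per comparison and family), the highest levels, up to 2 called per gene list, the smallest allele p and called young L1 peaks. The text uses part of them, and a withheld item is not reported here. The members, gene lists, markers and motifs were chosen with earlier results of these data known. Alternatives were DESeq2 1.42.0, other scalings, no minimum count, thinning, windows without overlap, peaks without recurring 30-mers, a replicate term and each library left out. No p is given for shares of tags, which are scores over the members.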

Additional observations from a re-analysis of the deposited data

Results flagged for a closer look

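The LPS response differed between the strains by the interaction test at 2 LINE peaks, named here because they were the only ones called. At the Pisd-ps1 Lx9 peak C57BL/6J controls had 0.580, 0, 0 and 2.66 normalised counts and C57BL/6J LPS libraries 74.4, 51.0 and 67.7, whereas BALB/cJ had 38.2, 36.1, 38.9 and 32.8 in controls and 46.2 and 64.2 after LPS. The difference of the log2 ratios was 5.61 ± 0.72 (SE, adjusted p = 9.7e-06, edgeR), and 82.6% of the peak's 30-mers recur elsewhere. At the Ifi204 Lx8 peak C57BL/6J had 24.4, 38.5, 15.6 and 33.2 in controls and 5.62, 28.0 and 15.9 after LPS, and BALB/cJ 0 in all controls and 0 and 8.79 after LPS, so that the difference of -6.43 ± 1.36 (adjusted p = 0.0356, edgeR) rests on a single BALB/cJ library, with 51.2% recurring 30-mers.

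Groups of libraries were examined at named peaks (controls only) and for shares of tags (controls and hybrid LPS), 142 in all. Of these, 10 held a library far from the others, where chance gives about 1 in 20, and all 10 were at named peaks. These were the Arl15 peak at 1.01 (BALB/cJ) and 1.30 (C57BL/6J) normalised counts, the Lpin1 L1M4 peak at 24.7 (A/J), the Nsmce2 peak at 4.03 (BALB/cJ) and 2.66 (C57BL/6J), the Daam1 peak at 1.34 (BALB/cJ), the Serpina3i peak at 5.47 (A/J) and 1.30 (C57BL/6J), the Traf1 peak at 1.38 (BALB/cJ) and the Adgre1 peak at 1.09 (A/J). In all but the Lpin1 peak the other libraries of the group were at or near 0. There a few tags are enough to set a library apart, so the rate of 1 in 20 does not apply to such groups.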

How the results depend on the processing

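Counts of LINE peaks called between strains moved with the minimum count and depth. Without a minimum, 350 peaks were called in C57BL/6J against BALB/cJ controls (143 as reported), 205 in A/J against BALB/cJ (125), 302 in A/J against C57BL/6J (166) and 229 between strains after LPS (120). With every library thinned to the smallest, these were 61, 51, 71 and 46. With windows that overlap no other, 72 were called between strains after LPS and 480 for LPS in C57BL/6J (730), where fewer peaks were tested. The cause of the other moves was not tested. Leaving out each library in turn gave 105 to 176, 89 to 142, 132 to 153 and 60 to 111 for the strain comparisons, 427 to 885 for LPS in C57BL/6J, 537 to 943 in BALB/cJ (934), 132 to 155 in the hybrid (154), 9 to 13 between control alleles (16) and 40 to 44 between LPS alleles (43). The lowest were without BALB/cJ LPS replicate 2 (60 and 537), C57BL/6J LPS replicate 3 (427) and CB6F1/J control replicate 1 (9). The strain difference in response (2) ranged from 1 to 5 without single libraries (5 without BALB/cJ LPS replicate 1, 4 without C57BL/6J LPS replicate 1), and was 4 with DESeq2, 1 thinned, 0 of 2501 in peaks without recurring 30-mers (edgeR, 195 at an unadjusted p under 0.05, 4 with DESeq2) and 0 of 2179 in windows without overlap (149 and 4). Between control alleles 0 of 603 were called without a minimum (edgeR, 86 at an unadjusted p under 0.05, 21 with DESeq2). The LINE share rose by 0.493 percentage points with LPS in BALB/cJ, and by 0.281 with tags outside promoters as the denominator. Shares differed by 0.386 to 0.532 (C57BL/6J) and 0.451 to 0.526 (BALB/cJ) without single libraries. With total counts as the scaling, the share of calls that were higher moved from 73.4 to 79.7% in C57BL/6J and from 68.5 to 75.6% in BALB/cJ.

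Same-numbered libraries correlated below 0.1 in at least 1 pair of every comparison, so the numbers were not taken as pairs. Between control strains the correlations were all positive. They were 0.04 to 0.17 for C57BL/6J and BALB/cJ, 0.02 to 0.24 for A/J and BALB/cJ and 0.05 to 0.13 for A/J and C57BL/6J. Whether the numbers mark shared batches was not tested. With a replicate block 146, 144, 184, 162, 706, 930, 3 and 148 LINE peaks were called in the order of the comparisons above (strains, LPS in C57BL/6J and BALB/cJ, strain difference, hybrid), and without the pairing by animal 17 and 43 between alleles.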
